A study of Mus musculus with 2 samples.

Results

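ISL1 is a LIM-homeodomain factor that pacemaker cells of the sinoatrial node express, and its binding was examined around 9 genes of BMP, neuregulin, PDGF, Notch and FGF signalling: Bmp4, Bmp6, Bmpr1b, Nrg1, Nrg3, Nrg4, Pdgfc, Jag1 and Fgf10. All peaks whose nearest transcription start site (TSS) belonged to one of these genes were taken, at any distance. This gave 15 of the 1483 peaks in the list, under 6 of the 9 genes. The genes had been selected on their peaks in this same list, so their peak counts are a description and carry no test. The set is wider than a set of ligands, because Bmpr1b encodes a receptor and Fgf10 belongs to the FGF family.

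The cells came from the sinoatrial nodes of Hcn4-H2BGFP mice on the ICR background at postnatal day 1 to 3 and were sorted for the green fluorescent signal. The reporter is a green fluorescent histone tied to Hcn4, which encodes the chief pacemaker channel. All material carried this reporter, and the number of animals is not given in the sources used here. Chromatin was fixed in 2 steps, 30 min in disuccinimidyl glutarate (2 mM) and then 10 min in formaldehyde (1%). Fragments of 100 to 400 bp were precipitated with 5 µg of an ISL1 antibody. There was 1 ISL1 library and 1 input DNA library, and the input was not analysed here. With no replicate, no value below has an error between animals or preparations. The assay measures binding and not expression, so the cell type could not be checked by its expressed markers. Of the pacemaker genes looked up, Hcn4, Tbx3 and Shox2 were nearest to 0 peaks and Isl1 to 2. Among 26220 RefSeq genes, 3.82% were nearest to any peak, so an absence is common.

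The 9 genes act in signals between neighbouring cells. BMP ligands bind paired type I and type II serine kinase receptors, which pass the signal to SMAD proteins. Neuregulins bind ERBB3, ERBB4 or both. In the heart, the product of Nrg1 passes from endocardium to muscle and is needed for trabeculae and conduction tissue. PDGF-C is secreted in a latent form and acts mainly through the receptor PDGFRA on mesenchymal cells. Jagged 1 sits in the membrane and activates Notch receptors on the adjacent cell. Bmp4 and Fgf10 are known as genes that depend on ISL1 in progenitors of the second heart field in the embryo.

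Of the 15 peaks, 0 were annotated to a promoter, against 3.24% of all 1483 peaks. That is near the share in the list. Of the 15, 8 were intergenic and 7 intronic. The intronic share was 46.7% (exact Clopper-Pearson 95% interval 21.3 to 73.4), against 40.8% of all 1483 peaks. Such intervals take peaks as independent, although Pdgfc, Bmpr1b and Jag1 gave 12 of the 15, so they may be too narrow and are no test against the list. None lay within 10 kb of the TSS: 0 of 15 peaks allows a share of up to 20% (3 peaks of 15), and 11.4% of the whole list lay that close. Within 100 kb there were 6 of the 15 (40%, 16.3 to 67.7), against 55.4% of the list. The median distance was 169 kb, with a range of 12.8 to 351 kb, against a median of 83.4 kb for the list. Without the 6 peaks of Pdgfc the median of the remaining 9 was 58.8 kb, so the long median distance rested on that gene.

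**Figure D1:**
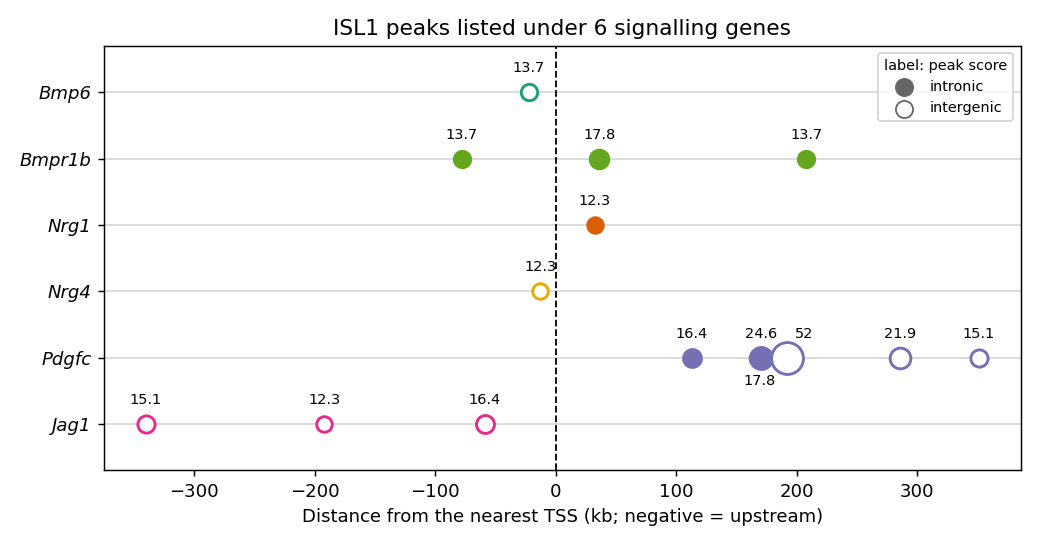
Position of each of the 15 peaks along a line for its nearest gene, in kb from the nearest TSS (negative is upstream). Filled circles are intronic and open circles intergenic, circle area is proportional to the peak score, and the number is the score. The 6 Pdgfc peaks are all downstream of the TSS and the 3 Jag1 peaks are all upstream. Of the 15 peaks 60% are downstream, against 58.8% of all 1483 peaks.

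The peak score is the authors' own value per peak, and it serves here only to describe peaks within the list. The 15 scores ran from 12.3 to 52.0 with a median of 15.1, the same as the median of all peaks (quartiles 12.3 and 17.8). Without Pdgfc the 9 remaining scores had a median of 13.7 and reached no higher than 17.8. Scores at or above the 75th percentile of the list (17.8) belonged to 5 of the 15 peaks (33.3%), against a background of 29.4%. That share is near the background. Of those 5, 4 were Pdgfc peaks and 1 was a Bmpr1b peak.

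The scores moved in steps of 1.37. If each step is 1 sequenced tag, the lowest of the 15 peaks rest on 9 tags (exact Poisson 95% interval 4.12 to 17.1) and the Pdgfc peak of 52.0 on 38 tags (26.9 to 52.2). Such intervals hold counting error alone, and the reading of a step as 1 tag was not tested. A score of 12.3 then has an interval of 5.63 to 23.4, which holds the quartiles and the median of the list. The order of scores between 12.3 and 17.8 is therefore not resolved at this depth.

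**Figure D2:**
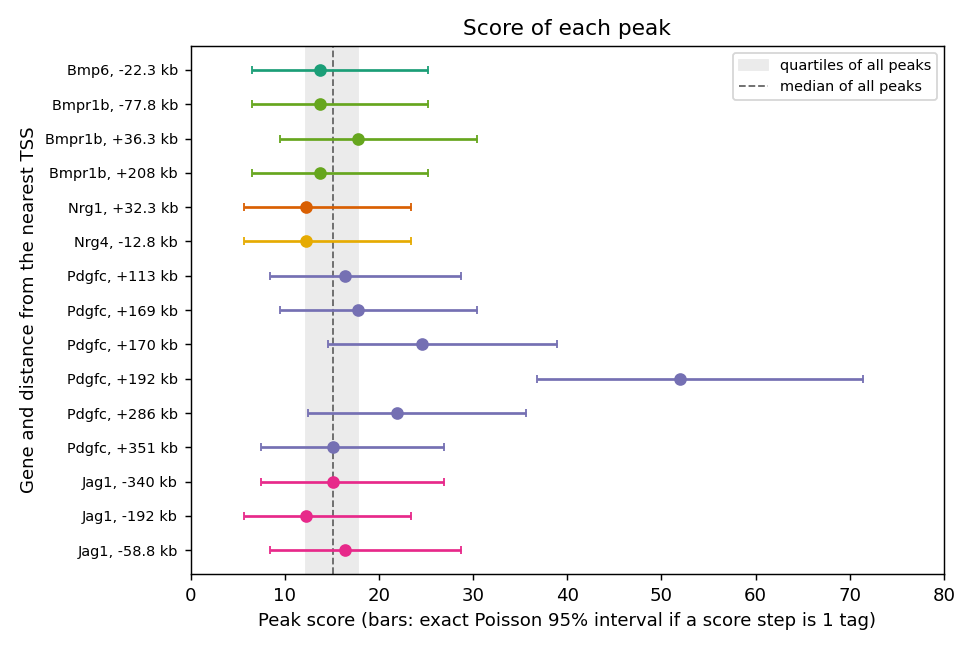
Score of each of the 15 peaks (points) with its exact Poisson 95% interval if a score step is 1 tag (bars), the quartiles of all 1483 peaks (band) and their median (dashed line). The Pdgfc peak of score 52.0, 192 kb from the TSS, is the only one of the 15 whose interval (36.8 to 71.4) lies wholly above the upper quartile of 17.8.

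Pdgfc, the PDGF ligand of the set, held the most peaks and the highest ones. Its 6 peaks covered 238 kb of chromosome 3 and all lay downstream of its TSS, which the deposited distances place at position 80840338 on mm9. Downstream of the nearest TSS lay 58.8% of all 1483 peaks. Of the 1003 genes nearest to any peak, 15 had 6 or more, a background of 0.0572% of 26220 RefSeq genes. Pdgfc was chosen with that count known, so nothing is read from it. Peak counts were not corrected for gene length or for the intergenic space around a gene.

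Inside the gene, the first peak was in intron 2 of 5, at chr3:80952952-80953096, 113 kb from the TSS, with a score of 16.4. Intron 4 held a close pair. The first of the pair, at chr3:81009277-81009421, scored 17.8, and the second, at chr3:81010012-81010156, scored 24.6. If steps are tags, their intervals overlap (9.47 to 30.4 and 14.6 to 38.9), so the order of the 2 scores is not resolved. Their centres were 0.735 kb apart, and 88 of the 1483 peaks (5.93%) had another peak that close or within 1 kb. Fragments of 100 to 400 bp are shorter than that spacing.

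Beyond the last intron, 3 intergenic peaks followed. The nearest of them, at chr3:81032205-81032349, 192 kb from the TSS and 22.2 kb past the intron 4 pair, scored 52.0. Only 1 peak of the list scored higher, the one of 84.8 in intron 1 of the netrin receptor gene Unc5c, and 1 other peak had the same score. The next Pdgfc peak, at chr3:81126699-81126843, scored 21.9 at 286 kb. The farthest, at chr3:81190806-81190950, scored 15.1 at 351 kb.

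All 6 Pdgfc peaks scored at or above the list median of 15.1, which 51.1% of all peaks did. Their own median was 19.85. Among the other 14 genes with 6 or more peaks the medians ran from 12.3 to 21.9, so Pdgfc lay within that range. Its highest peak was 2.11 times its second. Within this set of genes only Unc5c had a larger ratio (3.26), and the others ran from 1.00 (Efnb2, an ephrin gene) to 1.61 (Foxp2, a forkhead gene). Pdgfc had no peak within 100 kb of its TSS, as had 4 of the other 14 genes. All its peaks were downstream, as were all those of 2 of the other 14 genes. Each Pdgfc peak had the 5 others within 250 kb, and 4.86% of all peaks had 5 or more other peaks that close. No peak of another gene lay within 200 kb of a Pdgfc peak. The next peak beyond the farthest was 572 kb on, listed under Tdo2, a tryptophan-degrading enzyme gene. Before the first, the previous peak was 1100 kb away, under Fam198b.

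Jag1, the Notch ligand of the set, had 3 intergenic peaks, all upstream of its TSS at position 136942256 of chromosome 2. In the whole list, 41.2% of peaks lay upstream. The nearest of the 3, at chr2:137001028-137001172, lay 58.8 kb upstream with a score of 16.4. The middle peak, at chr2:137133966-137134110, lay 192 kb upstream and scored 12.3. The outermost, at chr2:137282386-137282530, lay 340 kb upstream and scored 15.1. The 3 scores were within counting error of each other if steps are tags. Neighbouring peaks were 133 and 148 kb apart, so there was no close pair as in Pdgfc. On the far side the next peak of the list was 2180 kb away, and on the near side 1920 kb. Gaps about as long or longer lay on 1 side of the peaks of Nrg1 (2120 kb), Nrg4 (4910 kb) and Bmp6 (5460 kb). Those beside the Pdgfc peaks were shorter (1100 and 572 kb). Gaps over the whole list were not computed, so nothing is read from the Jag1 spacing.

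Of the BMP genes, the ligand gene Bmp6 had 1 peak and the receptor gene Bmpr1b had 3, while Bmp4 had none in the list analysed. The Bmp6 peak was intergenic, at chr13:38415193-38415337, 22.3 kb upstream of the TSS, with a score of 13.7. Its nearest neighbour in the list was 271 kb away, under Bloc1s5, a gene of lysosome-related organelles. Of all peaks, 54.3% had another within 250 kb.

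Bmpr1b encodes the type I BMP receptor also called ALK6. Its highest peak, of score 17.8, lay in intron 2 of 11 of one of its transcripts at chr3:141558211-141558355, 36.3 kb downstream of the TSS. A second peak in the gene, of score 13.7, lay in intron 1 of a longer transcript at chr3:141722913-141723057. It was 77.8 kb upstream of the nearest annotated TSS of Bmpr1b, which makes it upstream of that start and intronic for the longer form at once. The remaining peak, also of 13.7, was listed under Bmpr1b at 208 kb but lay in intron 3 of 15 of the neighbouring gene Unc5c, at chr3:141386938-141387082. It was the only one of the 7 intronic peaks that lay in the body of another gene (14.3%, exact Clopper-Pearson 95% interval 0.361 to 57.9). In the list as a whole, 678 peaks were annotated to a matched transcript, and for 29.1% of them that gene was not the nearest. Those 678 include peaks at promoters and not only intronic ones, so the shares have unlike bases.

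The Bmpr1b peaks bordered the group of peaks in Unc5c. Within 200 kb of the peak in Unc5c intron 3 there were 4 peaks listed under Unc5c, all in its intron 1, with scores of 12.3 to 26.0. The closest was 143 kb away. These were the only peaks of another gene within 200 kb of any of the 15. Unc5c and Bmpr1b are adjacent in gene order, and a nearest-TSS rule cannot say which of them such a peak acts on.

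Among the neuregulins, Nrg1 and Nrg4 had 1 peak each and both had the lowest score of the set, 12.3, which 82.7% of all peaks reached or passed. Nrg1, the neuregulin that signals from endocardium to heart muscle, had its peak in intron 1 of 8 at chr8:32996330-32996474, 32.3 kb downstream of the TSS. Nrg4, a secreted ligand of ERBB4 known mostly from fat tissue, had an intergenic peak at chr9:55144165-55144309. That peak lay 12.8 kb upstream, the shortest distance of the 15. It was also the only one of the 15 on an annotated repeat, an LTR element of the MaLR class. That share of 6.67% is near the 7.82% of all peaks on repeats. Neither peak had another peak within 250 kb, while 54.3% of all peaks did, so such spacing was common in the list.

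Nrg3, an ERBB4 ligand best known from the nervous system, was the nearest gene of no peak but held 1 in its body. That peak, at chr14:39539588-39539732, lay in intron 2 of 9 of Nrg3. It was listed under the antisense gene Nrg3os, whose TSS was 172 kb away. Its score was 12.3, the same as those of Nrg1 and Nrg4. With the gene that holds a peak counted as well as the nearest gene, 7 of the 9 genes had a peak, against a background of 4.21% of genes. Bmp4 and Fgf10 had none by either count in the list analysed.

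By the nearest TSS alone, 6 of the 9 genes had a peak, against 3.82% of 26220 genes, and 5 of the 9 had one within 100 kb, against 2.57%. Of the 9, 3 genes (Pdgfc, Jag1 and Bmpr1b) were nearest to 3 or more peaks, against 0.362%. Since the choice of the genes used these peaks, the contrast with the background carries no weight. Pdgfc is the gene lost at the shorter limit.

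The focus ratio is a second value that the authors' peak list gives for each peak. In HOMER's usual definition it is the fraction of a peak's tags that lie on the proper side of its centre for a single narrow site. The ratios are not whole fractions of the step counts, for example 0.636 at 9 steps (Nrg1) and 0.589 at 38 steps (Pdgfc). If a step is 1 tag, the score and the ratio thus do not rest on the same tags. Which tags each used is not stated. The 15 peaks had a median of 0.714 and a range of 0.522 to 0.800, against 0.739 for the list. At or below the list median were 11 of the 15 (73.3%, exact Clopper-Pearson 95% interval 44.9 to 92.2), against 50.3% of the list, and 5 of these 11 were Pdgfc peaks. The lowest belonged to the first peak of the Pdgfc intron 4 pair, and 2.02% of all peaks were at or below it. The second peak of that pair stood at 0.760. For the Pdgfc peak of score 52.0 the ratio was 0.589, which 8.90% of peaks were at or below. The highest, 0.800, was that of the Nrg4 peak on the repeat.

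**Figure D3:**
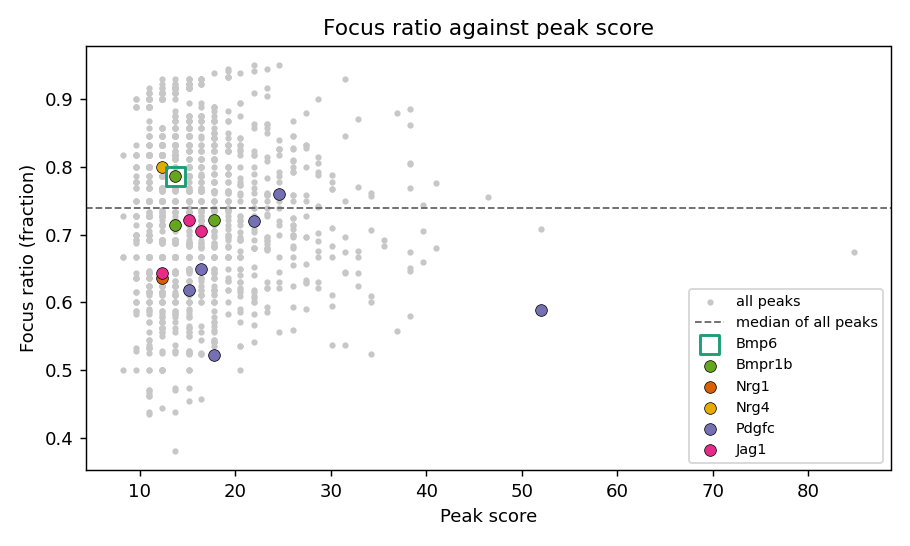
Focus ratio (fraction) against peak score for all 1483 peaks (grey) and the 15 peaks of the 6 genes (coloured), with the list median of 0.739 (dashed). The Bmp6 square surrounds a Bmpr1b point of the same score and ratio, and 11 of the 15 coloured peaks lie below the line.

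The wider pathways were read from lists of 121 genes in 13 families of ligands, receptors, inhibitors, transducers and targets. Of these, 11 genes were nearest to a peak (9.09%), against the background of 3.82% of genes. Without the 9 chosen genes, 5 of 112 were (4.46%). The 9 had been chosen on their peaks, so keeping them raises the share and leaving them out lowers it by construction. Neither share is therefore read as a result against the background. No gene of the BMP antagonists (14 genes), the SMADs (8), the PDGF receptors (3), the Notch receptors (4) or the FGF receptors and inhibitors (9) was nearest to a peak in the list analysed.

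The 5 others were Erbb4, Bmp2, Hes1, Fgf13 and Fgf20. Erbb4, which encodes a receptor that neuregulins bind, had 3 peaks. An intergenic pair lay 212 kb upstream, at chr1:69366350-69366494 with a score of 12.3 and at chr1:69366675-69366819 with 13.7. The centres of that pair were 0.325 kb apart, which is within the length of the sheared fragments. The last Erbb4 peak, of 10.9, lay on a repeat in intron 3 of 26, 683 kb from the TSS.

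Bmp2, a BMP ligand of the atrioventricular canal, had 1 peak of score 17.8 on a repeat 281 kb upstream, at chr2:133097023-133097167. Hes1, a target gene of Notch signalling, had 1 of 12.3 at chr16:30059545-30059689. At 5.83 kb upstream it was the closest to a TSS of any gene in these families. Among the FGF genes, Fgf13, an intracellular member that binds sodium channels, had 1 of 17.8 in intron 3 of 6 at chrX:56483051-56483195. Fgf20 had 1 of 16.4, 194 kb downstream at chr8:41177891-41178035. Of the Notch receptors, Notch2 held a peak of score 10.9 in intron 5 of 33, listed under Adam30.

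**Figure D4:**
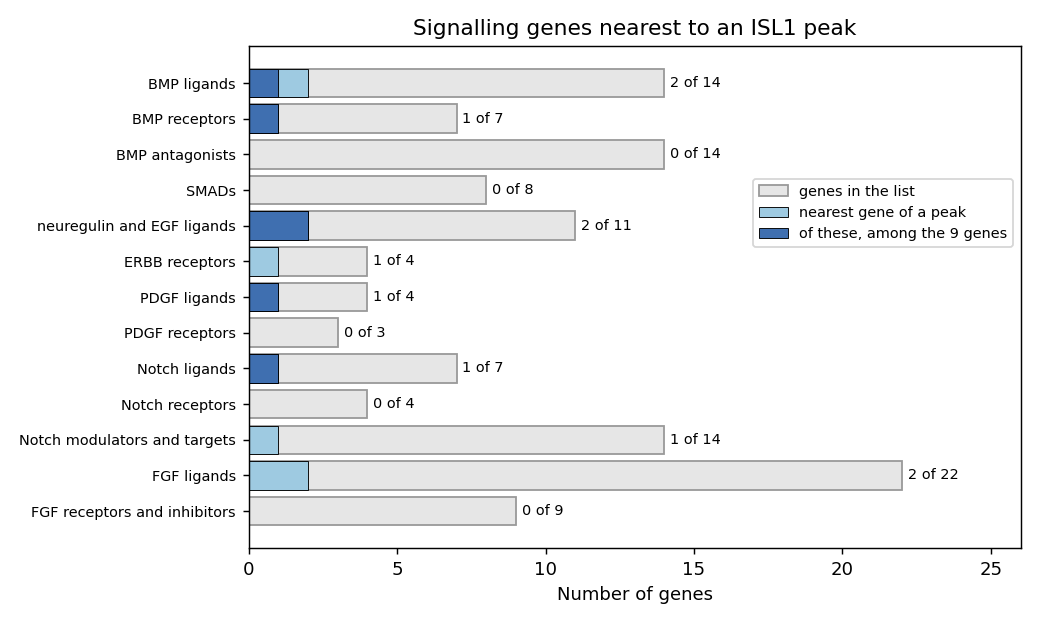
Number of genes in each of 13 signalling families (grey bars), of those nearest to a peak at any distance (light blue) and of those among the 9 chosen genes (dark blue). Of 121 genes 11 were nearest to a peak, 6 of them among the chosen genes.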

How the data were processed

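The peak list of 1 ISL1 library was used. Bowtie, HOMER and build mm9 are named per the submitters' processing notes, with no versions. Annotation used HOMER's program on mm9, per the file headers, on a table named for the input. How peaks were called and the input used is not stated in the labels or headers. The peak score and the focus ratio, a fraction, are the authors' deposited values. Distances, annotations and coordinates are as deposited, per the file headers. Each peak was 144 bp from start to end.

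Peaks were taken by nearest gene name. Host genes came from the annotated transcript, matched to RefSeq symbols of GRCm38.p6, a build used only for names, strand, gene order and the background of 26220 genes with a curated transcript. TSS positions were computed from peak centres and deposited distances. No mm9 sequence was given, so no peak sequence is shown.

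The score step was found by search, and 0 of 1483 scores were off by more than rounding. If HOMER's usual scaling held, it would put the library at about 7310000 tags. The search and the intervals were tested on simulated data. Python 3.11.15, pandas 2.3.3 and SciPy 1.17.1 were used. No test between groups was possible with 1 library.

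The genes, the family lists and the rules were chosen with earlier results of these data known. Genes named were the 9, other family genes with a peak, host genes, and neighbours within 200 kb. Farther neighbours, those in gene order and genes used for comparison were named after their values were seen. The genes beside Fgf10 are not reported here. Alternatives were 2 score thresholds, a limit of 100 kb, host genes, leaving out repeats, merging peaks within 1 kb and, chosen after seeing the data, leaving out Pdgfc or the 9 genes.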

Additional observations from a re-analysis of the deposited data

How the results depend on the processing

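The count of 15 peaks fell to 9 at scores at or above the list median, to 5 at or above the 75th percentile, to 6 within 100 kb of the TSS and to 9 without Pdgfc. The count of 6 genes with a peak became 3 at or above the median score and 2 at or above the 75th percentile, where Pdgfc and Bmpr1b were left. The 11 family genes with a peak became 6 at or above the median, 4 at or above the 75th percentile, 7 within 100 kb and 5 without the 9 chosen genes. Each of these alternatives uses fewer peaks or genes by construction. The median score ran from 13.7 to 21.9 and the intronic share from 42.9% to 60% over the 7 alternatives run. The score thresholds raise the median by construction. Counting host genes, leaving out peaks on repeats and merging peaks within 1 kb kept all 3 counts within 1.5 times. No paired analysis was possible because the series has 1 ISL1 library. At 9 to 13 tags a peak, if steps are tags, the depth does not order 12 of the 15 peaks.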

Other observations

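Of the 3 protein-coding genes on either side in gene order, none was nearest to a peak around Bmp4, Nrg1, Nrg3 and Nrg4. Those beside Nrg4 include Isl2, the paralogue of Isl1, with 0 peaks in the list analysed. Only 3.82% of 26220 genes were nearest to a peak, so such absences are common and nothing is read from them. Around Bmpr1b, Unc5c had 10 peaks and Pdlim5, a Z-disc gene, had 1 of score 26.0. As neighbours in gene order, Bloc1s5 for Bmp6 had 1 of 17.8, Tdo2 for Pdgfc 1 of 15.1 and Ism1 for Jag1 1 of 12.3. Sptlc3, also beside Jag1, was the nearest gene of no peak but held 1 in its body. Whether that is the peak listed under Ism1 was not looked up. By peak positions, the Tdo2 peak lay 572 kb past the farthest Pdgfc peak. The Ism1 peak lay 2180 kb past the outermost Jag1 peak. Gene order came from another build and gives no distance.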
